A study of Mus musculus with 9 samples.

Results

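The 9 Wnt ligand mRNAs described here, *Wnt1*, *Wnt2b*, *Wnt3*, *Wnt4*, *Wnt5a*, *Wnt5b*, *Wnt7a*, *Wnt7b* and *Wnt9a*, were chosen by name from 32899 genes with a matched transcript in the deposited table, and all of their 19 RefSeq transcript rows were used, summed per gene and row by row. RNA immunoprecipitation-sequencing (RIP-seq) sequences the RNA that comes down with a protein. The 9 libraries were 3 CELF2-KI RIPs made with rabbit anti-CELF2, 3 IgG RIPs made with normal rabbit IgG, and 3 input samples taken before antibody was added. Antibody was added at 10 µg for 3 hours in each RIP, and the design asks which cytoplasmic mRNAs come down with CELF2, an RNA-binding protein, more than with a nonspecific antibody or than their share of the starting RNA. All 9 libraries, controls included, were made from cortical cytoplasm of *Celf2* knock-in (KI) mice, heterozygous for p.R493H, at postnatal day 0, so every group carried 1 mutant and 1 normal allele. No wild-type library was analysed here, and none of the comparisons is between genotypes. The labels describe the lysate as holding neurons, radial glia and other cells together, so a level cannot be assigned to a single cell type. Per the methods, input was set aside from the cytoplasmic fraction and the rest was incubated with antibody. Comparisons between conditions are therefore of the RNA recovered and not of cell numbers.

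Wnt proteins are secreted, lipid-modified signals that bind Frizzled receptors. Together with the coreceptors LRP5 and LRP6 they stabilize beta-catenin, which switches on target genes (the canonical route), and with coreceptors such as ROR2 they act on the cytoskeleton and cell polarity (the noncanonical route). In the developing cortex they pattern the dorsal telencephalon, guide the growth and differentiation of progenitors and later shape axons, dendrites and synapses.

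Values are CPM, each gene's part of a library's protein-coding counts per 1000000, after scaling by edgeR's trimmed mean of M values (TMM), which brings libraries of different composition to a common level. CPM is not corrected for transcript length, so levels were compared between conditions and not between genes. Fold changes, standard errors and false discovery rates (FDR, Benjamini-Hochberg over 15263 genes) came from edgeR's quasi-likelihood test, and a gene was called at an FDR below 0.01 and a change of at least 2-fold. Total estimated counts ran from 15919600 to 20052716 per CELF2-KI RIP library, from 17365561 to 28773130 per IgG RIP library and from 69125700 to 105116427 per input library, so input values carried the least counting error. In IgG RIP a single row that matched no gene took 10.8% to 34.9% of the counts, against at most 1.76% in the other libraries. It lay outside the totals used for CPM. *Celf2* itself stood at 638 ± 164 CPM with CELF2-KI RIP, at 233 ± 33.4 with IgG RIP and at 296 ± 14.9 with input (SD, n = 3).

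Of the 9 ligands, *Wnt5a* and *Wnt9a* passed the test as higher with CELF2-KI RIP than with either control, against 7.58% of all genes tested. Over IgG RIP these 2 ligands were called higher, where 13.4% of all genes were, and over input 3 were, *Wnt2b* with them, where 14.6% of all genes were. No ligand was called lower over IgG RIP, where 13.5% of all genes were, or over input, where 15.5% were, and at an unadjusted p below 0.05 the test gave 0 lower over IgG RIP and 1 lower over input, *Wnt4*. DESeq2 called 0 lower as well. *Wnt7a* and *Wnt7b* had an FDR below 0.01 over both controls with changes just under 2-fold over IgG RIP. Over input this depended on the scaling. *Wnt1*, *Wnt3*, *Wnt4* and *Wnt5b* passed the threshold in neither comparison. The study listed *Wnt1*, *Wnt5a* and *Wnt9a* as targets from these same libraries, so their direction here is not independent evidence.

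Across the 9 ligands most log2 fold changes were above 0. Over IgG RIP the log2 fold change was above 0 for 8 of 9 ligands, with a median of 0.96 against -0.06 over all genes tested, of which 48.0% were above 0. Over input it was above 0 for 8 of 9, with a median of 0.60 against 0.19 and 56.4% over all genes. *Wnt3* over both controls and *Wnt5b* over input turned below 0 under other scalings, so with library totals alone 7 of 9 were above 0 over IgG RIP and 6 of 9 over input. In 6 ligands all 3 CELF2-KI RIP libraries exceeded all 6 controls, a separation that 25.2% of all genes tested showed, and the same 6 exceeded all 3 IgG RIP libraries, as 30.0% of all genes did. Summed over the 9 ligands, CELF2-KI RIP held 336, 385 and 339 CPM, IgG RIP 162, 188 and 181, and input 207, 209 and 227, with *Wnt7b* the largest part.

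**Figure D1:**
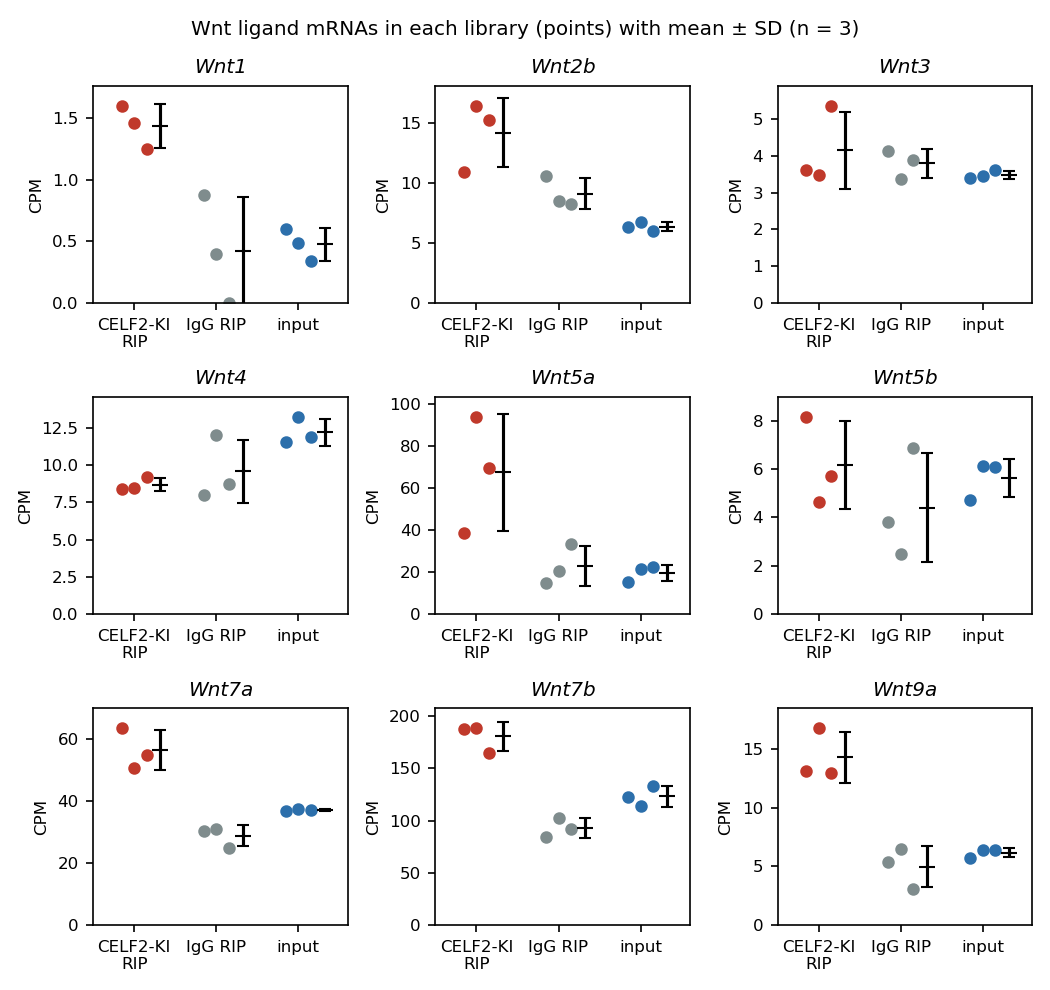
CPM (y axis, linear and starting at 0, on its own scale in each panel) of the 9 Wnt ligand mRNAs in the 3 libraries of each condition (x axis, points), with the mean ± SD beside them. The CELF2-KI RIP points lie above every control point for *Wnt1*, *Wnt2b*, *Wnt5a*, *Wnt7a*, *Wnt7b* and *Wnt9a*, and mix with them or lie below for *Wnt3*, *Wnt4* and *Wnt5b*. The lower error bar of *Wnt1* in IgG RIP is cut at 0.

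*Wnt5a*, the best known ligand of the noncanonical route, lies at chromosome 14, positions 28504543 to 28527448 (GRCm38.p6). The CELF2-KI RIP libraries 1, 2 and 3 held 38.6, 93.7 and 69.5 CPM, the IgG RIP libraries 14.9, 20.6 and 33.3, and the input libraries 15.3, 21.6 and 22.2. No control reached the lowest CELF2-KI RIP library, though the gap between 38.6 and 33.3 CPM was small beside the spread of the CELF2-KI RIP libraries themselves. Relative to IgG RIP, the change on the log2 scale was 1.55 (SE 0.35, 95% interval 0.78 to 2.33, FDR 0.0039), and relative to input 1.77 (SE 0.34, 95% interval 1.01 to 2.53, FDR 0.0015). IgG RIP and input did not differ beyond their spread, at 0.22 (SE 0.35, FDR 0.64). Libraries that share a number deviated together weakly between CELF2-KI RIP and input. Within numbers 1, 2 and 3 the log2 difference from input was 1.33, 2.12 and 1.65. The call over input held in each of the 9 fits with 1 library left out. The call over IgG RIP held in 5 of these 9. It was lost at an FDR of 0.019 without CELF2-KI RIP library 2, 0.013 without CELF2-KI RIP library 3, 0.016 without IgG RIP library 1 and 0.017 without IgG RIP library 2, with log2 fold changes of 1.23 to 1.53.

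*Wnt5b*, the closest relative of *Wnt5a*, spans chromosome 6, positions 119432531 to 119544824, on the minus strand. With CELF2-KI RIP it stood at 8.16, 4.62 and 5.71 CPM, with IgG RIP at 3.82, 2.48 and 6.88 and with input at 4.74, 6.10 and 6.08, and the 3 conditions overlapped throughout. Relative to IgG RIP, the change on the log2 scale was 0.48 (95% interval -0.33 to 1.29, FDR 0.29), and relative to input 0.13 (95% interval -0.65 to 0.91, FDR 0.77). These intervals reach to about 2-fold on the upper side, so neither a change of that size nor its lack is shown. Its gene body contains *Fbxl14* on the opposite strand. Whether their exons overlap was not examined, and how strand was set in the counting is not given in the sources used here, so where they do the reads of the 2 genes cannot be told apart.

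The paralogs were compared directly by the log2 ratio of their CPM within each library. For *Wnt5a* to *Wnt5b* CELF2-KI RIP gave ratios of 2.17, 4.20 and 3.49, IgG RIP 1.83, 2.83 and 2.20, and input 1.60, 1.74 and 1.79. CELF2-KI RIP library 1 fell among the IgG RIP values and the other two lay above all controls. The mean difference from the 6 controls was 1.29, with p = 0.0714 in an exact two-sided permutation test (0.143 adjusted over the 2 ratios tested). The smallest p that 3 libraries against 6 allow is 0.0238, and the difference between the paralogs did not pass. CELF2-KI RIP and input were also matched by library number. In numbers 1, 2 and 3 the ratio was higher than in input by 0.58, 2.46 and 1.71, on average 1.58. This pairing was compared after the data were seen, and its exact two-sided sign-flip test gave p = 0.25, the smallest that 3 pairs allow.

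*Wnt4*, a ligand known from kidney and gonad development that can signal through either route, lies at chromosome 4, positions 137277635 to 137299501, on the plus strand. The CELF2-KI RIP libraries held 8.40, 8.47 and 9.20 CPM, the IgG RIP libraries 8.01, 12 and 8.75 and the input libraries 11.5, 13.3 and 11.9. Each CELF2-KI RIP library lay below each input library, while IgG RIP overlapped both. Relative to input, the change on the log2 scale was -0.49 (SE 0.18, 95% interval -0.89 to -0.09, FDR 0.036) and relative to IgG RIP -0.14 (95% interval -0.55 to 0.28, FDR 0.56). It was the only ligand with values below 0 in both comparisons, and neither passed the threshold. Under other settings and with 1 library left out, its value over input ranged from -0.96 (library totals alone, FDR 0.0017) to -0.47. It was called in none of these fits.

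*Wnt9a*, a ligand of the canonical route best known from joint formation, lies at chromosome 11, positions 59306849 to 59333552, on the plus strand. The CELF2-KI RIP libraries held 13.1, 16.8 and 12.9 CPM, the IgG RIP libraries 5.38, 6.44 and 3.08 and the input libraries 5.71, 6.38 and 6.36. Every CELF2-KI RIP library was above every control by a wide margin, and IgG RIP and input overlapped. Relative to IgG RIP, the change on the log2 scale was 1.53 (SE 0.26, 95% interval 0.96 to 2.10, FDR 0.00062), and relative to input 1.22 (SE 0.24, 95% interval 0.67 to 1.76, FDR 0.0017). Within library numbers 1, 2 and 3 the log2 difference from input was 1.20, 1.40 and 1.03. The call over IgG RIP held in each fit with 1 library left out. The call over input was lost without input library 1 (FDR 0.0102) and without input library 2 (FDR 0.0126), at log2 fold changes of 1.16 and 1.13.

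*Wnt2b*, expressed at the cortical hem that borders the embryonic cortex, lies at chromosome 3, positions 104944805 to 104961709, on the minus strand. Libraries of CELF2-KI RIP held 11.0, 16.5 and 15.3 CPM, the IgG RIP libraries 10.6, 8.53 and 8.25 and the input libraries 6.36, 6.76 and 6.03. The conditions followed the order CELF2-KI RIP, IgG RIP, input without overlap, but CELF2-KI RIP library 1 and IgG RIP library 1 nearly met. Relative to input, the change on the log2 scale was 1.16 (SE 0.19, 95% interval 0.73 to 1.58, FDR 0.00050), which was called, and relative to IgG RIP 0.64 (SE 0.20, 95% interval 0.20 to 1.07, FDR 0.018), which was not. *Wnt2b* had the highest value of the 9 in IgG RIP over input, 0.52 (SE 0.19, FDR 0.055), a value in the same direction as its rise over input. At its 3′ side the span overlaps that of *St7l*, on the opposite strand, by 4524 bp, with the same limit.

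*Wnt7a* and *Wnt7b*, canonical ligands made by neural progenitors and neurons and required for the growth of blood vessels into the brain, gave the smallest standard errors of the 9. *Wnt7a* lies at chromosome 6, positions 91363981 to 91411353, on the minus strand. Libraries of CELF2-KI RIP held 63.8, 50.9 and 55.0 CPM, the IgG RIP libraries 30.5, 31.1 and 25.0 and the input libraries 36.9, 37.5 and 37.3, 3 groups with no overlap. Relative to IgG RIP, the change on the log2 scale was 0.97 (SE 0.13, FDR 0.00018), and relative to input 0.60 (SE 0.13, FDR 0.0028).

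*Wnt7b*, at chromosome 15, positions 85535437 to 85581821, gave nearly the same picture on deeper counts. Libraries of CELF2-KI RIP held 188, 189 and 165 CPM, the IgG RIP libraries 84.2, 103 and 91.7 and the input libraries 123, 113 and 133, again without overlap. Relative to IgG RIP, the change on the log2 scale was 0.96 (SE 0.12, FDR 7.9e-05), and relative to input 0.55 (SE 0.12, FDR 0.0021). In IgG RIP over input *Wnt7a* was at -0.37 (FDR 0.050) and *Wnt7b* at -0.41 (FDR 0.018), values that missed the threshold. Leaving out 1 library carried *Wnt7a* past 2-fold over IgG RIP in 3 of 9 fits and *Wnt7b* in 2 of 9, at most to 1.04 and 1.05. Over input the FDR in these fits rose to at most 0.036 and 0.042. With library totals alone the change over input was 0.15 (FDR 0.44) for *Wnt7a* and 0.09 (FDR 0.54) for *Wnt7b*. With TMM over noncoding genes too it was 0.22 (FDR 0.23) and 0.16 (FDR 0.30).

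For *Wnt7a* to *Wnt7b* CELF2-KI RIP gave log2 ratios of -1.55, -1.88 and -1.58, IgG RIP -1.45, -1.71 and -1.86, and input -1.72, -1.58 and -1.83. The mean difference of CELF2-KI RIP from the 6 controls was 0.02 (exact two-sided permutation p = 0.857), with values from the 3 conditions mixed. Condition means were -1.67 ± 0.18 with CELF2-KI RIP, -1.67 ± 0.21 with IgG RIP and -1.71 ± 0.12 with input (SD, n = 3).

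*Wnt1*, the ligand of the boundary between midbrain and hindbrain, was near the limit of detection. It lies at chromosome 15, positions 98789857 to 98793830, on the plus strand. It had 20, 19 and 14 estimated counts with CELF2-KI RIP, 14, 4 and 0 with IgG RIP, and 38, 44 and 21 with input. In CPM the CELF2-KI RIP libraries stood at 1.6, 1.5 and 1.2, the IgG RIP libraries at 0.88, 0.40 and 0, and the input libraries at 0.60, 0.48 and 0.34. The groups did not overlap in CELF2-KI RIP against controls, yet the log2 fold changes, 1.72 relative to IgG RIP (SE 0.80, 95% interval -0.06 to 3.49, FDR 0.089) and 1.59 relative to input (SE 0.70, 95% interval 0.02 to 3.15, FDR 0.076), did not pass at this depth. Over input *Wnt1* passed only without IgG RIP library 3, the library with 0 counts (1.59, FDR 0.0038), and when the fit held the 2 conditions compared alone (1.36, FDR 0.0055). Of the 5 markers listed for midbrain and hindbrain 1 was high enough to be tested, their summed level was 0.446 to 0.800 CPM in CELF2-KI RIP, 0.501 to 1.39 in IgG RIP and 0.226 to 0.397 in input, and *Pax8* was at 0 in all libraries.

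*Wnt3*, a canonical ligand, lies at chromosome 11, positions 103774175 to 103818021, on the plus strand. The CELF2-KI RIP libraries held 3.60, 3.47 and 5.36 CPM, the IgG RIP libraries 4.13, 3.37 and 3.87 and the input libraries 3.40, 3.44 and 3.61, with overlap of all 3 conditions. Relative to IgG RIP, the change on the log2 scale was 0.12 (95% interval -0.44 to 0.68, FDR 0.71), and relative to input 0.25 (95% interval -0.30 to 0.79, FDR 0.40).

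**Figure D2:**
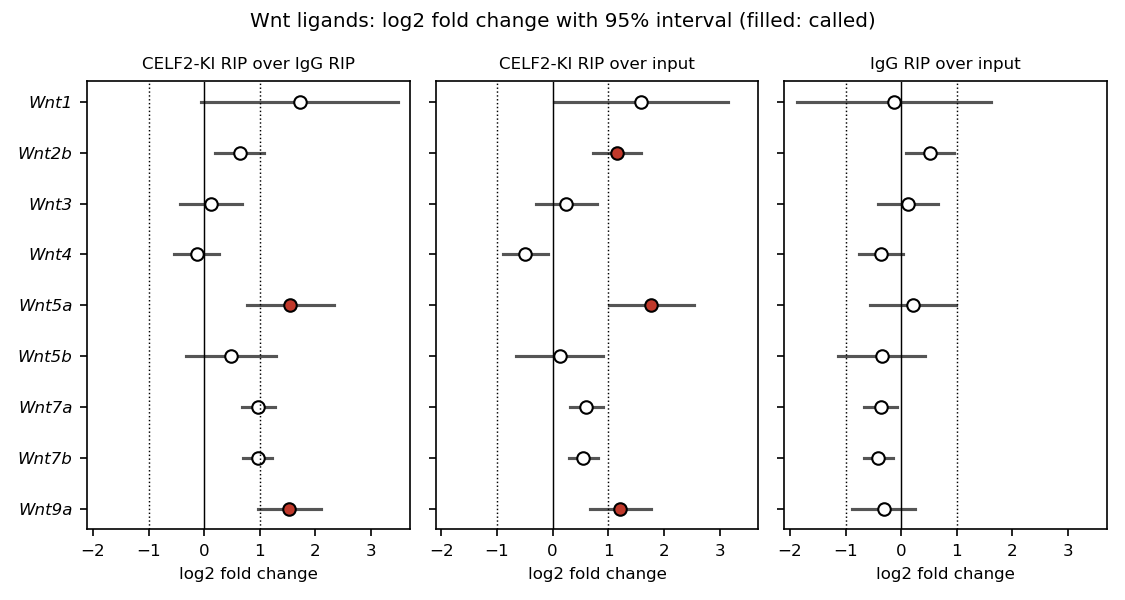
Log2 fold change (x axis) of each Wnt ligand (y axis) in the 3 comparisons, with 95% intervals from edgeR's quasi-likelihood fit (9 libraries). Filled points were called (FDR below 0.01 and at least 2-fold), and dotted lines mark 2-fold. *Wnt5a* and *Wnt9a* are filled over both controls, *Wnt2b* over input, and none in IgG RIP over input.

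IgG RIP over input served as the background of the procedure. No ligand was called higher (6.79% of all genes) or lower (5.01%) there. At an unadjusted p below 0.05 edgeR gave 1 higher, *Wnt2b*, and 2 lower, *Wnt7a* and *Wnt7b*, and DESeq2 also called 0. The median over the 9 was -0.32, against -0.003 over all genes, and 3 of 9 were above 0.

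Some markers of cell types moved between conditions in the same libraries. The shares of all genes called, 13.4% higher and 13.5% lower over IgG RIP and 14.6% and 15.5% over input, apply to each count here. Of 5 markers of excitatory neurons 2 were called higher over each control, with a summed level of 1122 to 1409 CPM in CELF2-KI RIP, 554 to 693 in IgG RIP and 645 to 788 in input. Of 5 radial glia markers 2 were lower over IgG RIP and 3 over input, with sums of 407 to 791, 488 to 532 and 844 to 1009 CPM. Meningeal fibroblast markers summed to 874 to 1530, 904 to 1285 and 540 to 770 CPM, with none of 5 called over IgG RIP and 1 called in each direction over input. Erythroid markers were lower in CELF2-KI RIP, 5 of 5 over IgG RIP and 4 of 5 over input, with sums of 93 to 95, 366 to 584 and 877 to 1135 CPM. Inhibitory neuron markers, 1 of 5 higher over IgG RIP and 1 lower over input, summed to 522 to 596, 310 to 363 and 420 to 443 CPM. Thalamus markers, 1 of 5 higher over each control, summed to 111 to 180, 81.1 to 99.6 and 74.2 to 77.6 CPM. Choroid plexus markers, 1 of 5 higher over IgG RIP and 1 lower over input, summed to 58.9 to 100.3, 52.6 to 165 and 179 to 480 CPM. The part of cell type in the levels of the Wnt ligands was not tested. Of 5 markers of oligodendrocyte precursors 2 were lower over input, and of 5 of endothelium 1 was, with none called over IgG RIP. Of 5 microglia markers 4 were tested. Among them 1 was called in each direction over IgG RIP, and 1 higher and 2 lower over input. None of the markers of these types was at 0 in all libraries.

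The transcript rows were next examined one by one. *Wnt1*, *Wnt2b*, *Wnt4* and *Wnt7a* had 1 row each, *Wnt3* and *Wnt9a* 2, *Wnt7b* 3, and *Wnt5a* and *Wnt5b* 4, and 16 of the 19 rows were high enough to be tested. Kallisto divides reads shared by several transcripts of a gene by estimation, so the split between rows is less certain than the sum. None of the rows was higher than both controls by the test, against 0.496% of all 39129 rows tested, and 1 was at an unadjusted p below 0.05 over both. Of the 16 rows 11 were above 0 over each control, with medians of 0.79 over IgG RIP and 0.31 over input. When the rows took the scaling of the gene-level fit, an alternative chosen after seeing the data, 0 passed over both controls, against 1.93% of all rows, and 3 had an unadjusted p below 0.05 over both. In that fit 13 of 16 rows were above 0 over each control, with medians of 1.02 over IgG RIP and 0.79 over input.

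The main *Wnt5a* row, NM_009524.3, held 78.0% to 86.6% of the gene's counts in CELF2-KI RIP, 77.3% to 97.2% in IgG RIP and 78.5% to 86.9% in input. In the planned row fit, with its own scaling, it stood 1.26 over IgG RIP (FDR 0.089) and 1.27 over input (FDR 0.096) on the log2 scale. With gene-level scaling it stood 1.52 and 1.78, close to the sum, whose scaling it then shared. The predicted row XM_006518923.3 held 0% in 2 CELF2-KI RIP libraries and 5.92% in the other, with 0% to 22.7% in IgG RIP and 3.38% to 19.0% in input. The row XM_006518924.2 held 7.43% to 22.0% in CELF2-KI RIP, 0.0017% to 19.9% in IgG RIP and 1.81% to 9.70% in input, and for both rows the IgG RIP range overlapped that of CELF2-KI RIP.

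In *Wnt7b* the row NM_009528.3 held 65.9% to 68.9% in CELF2-KI RIP, 52.2% to 78.1% in IgG RIP and 66.3% to 73.7% in input. The minor row NM_001163633.1 held 3.21% to 5.18%, 7.39% to 16.6% and 2.22% to 3.47%, highest in every IgG RIP library. It was the one *Wnt7b* row with a log2 fold change below 0 over IgG RIP, -0.55 with gene-level scaling, beside 1.09 and 1.06 for the other rows. The planned row fit gave -0.78 for it, beside 0.86 and 0.84.

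For the ligands of low count the split swung between libraries of the same condition. *Wnt9a* was assigned whole to NM_139298.2 in IgG RIP libraries 1 and 3 and whole to XM_006532855.2 in IgG RIP library 2, while both rows had counts in every CELF2-KI RIP and input library. Neither *Wnt9a* row passed alone, at 1.65 and 1.33 on the log2 scale over IgG RIP under gene-level scaling. The planned row fit gave 1.42 and 1.09. With curated transcripts alone, which drops the predicted row, the *Wnt9a* log2 fold change was 1.49 over IgG RIP and 1.25 over input, with FDRs of 0.296 and 0.373. *Wnt5b* moved whole between NM_001271758.1 and NM_009525.3 within IgG RIP. The share of each row was tested within its gene for the 12 rows that could be tested, and 0 changed in CELF2-KI RIP over IgG RIP at an FDR below 0.01 by edgeR, against 0.718% of all rows so tested. The same count was 0 at an unadjusted p below 0.05, where the lowest p was 0.203, and DESeq2 was not run on shares. Over input 0 of the 12 rows changed share (0.505% of all rows) and in IgG RIP over input 0 (0.629%), with lowest unadjusted p-values of 0.299 and 0.0758.

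**Figure D3:**
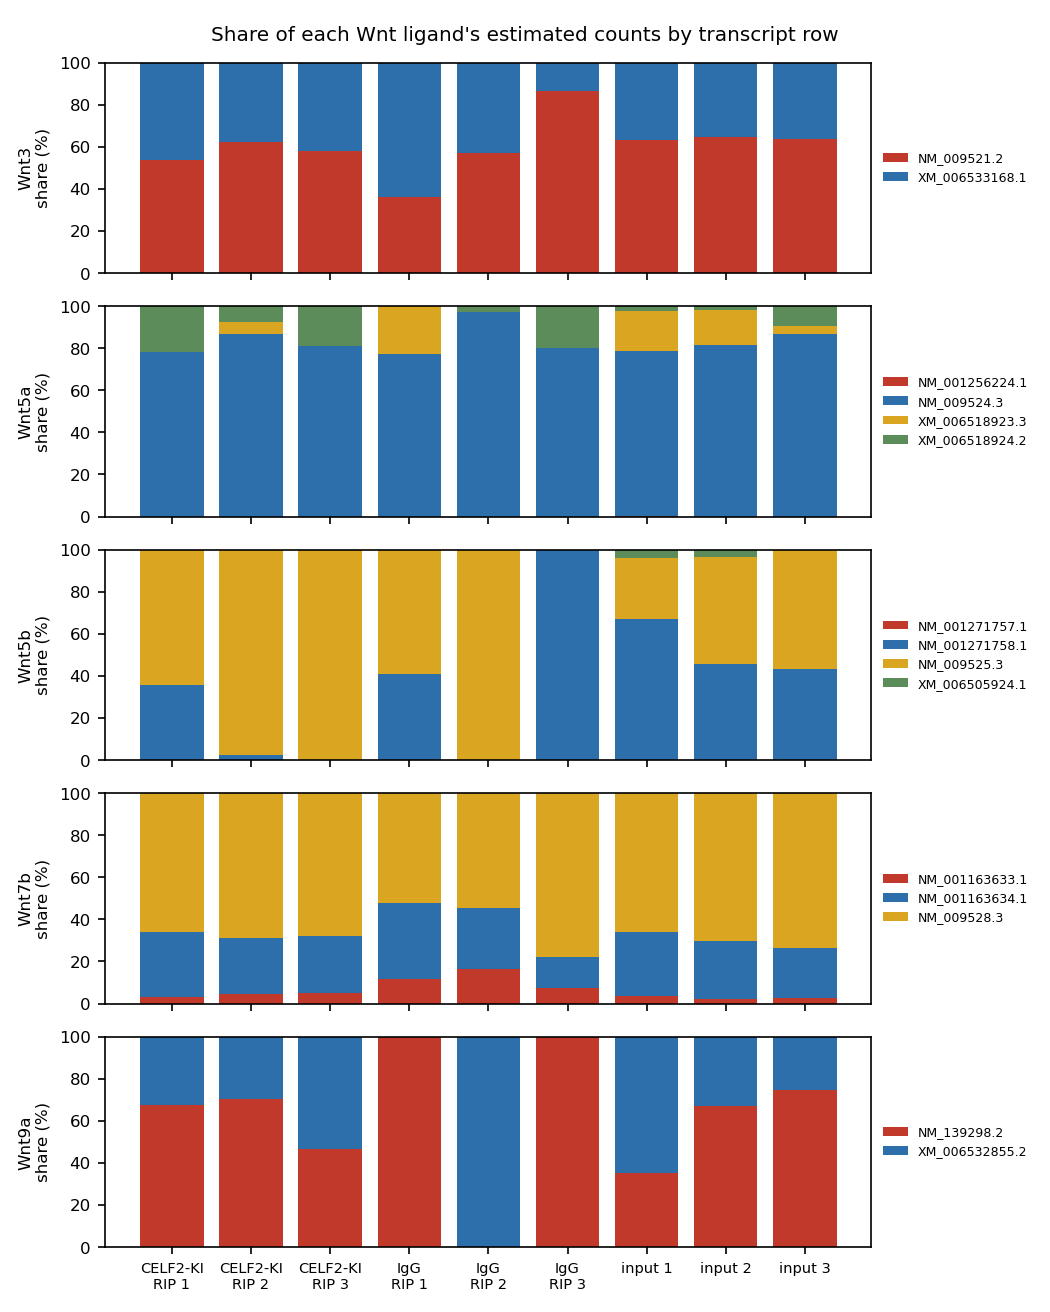
Share (y axis, %, bars from 0 to 100) of each gene's estimated counts held by each transcript row, in each of the 9 libraries (x axis), for the 5 Wnt ligands with more than 1 row. Within IgG RIP the main *Wnt5a* row runs from 77.3% to 97.2%, the main *Wnt7b* row from 52.2% to 78.1%, the curated *Wnt3* row from 36.0% to 86.5%, and rows of *Wnt5b* and *Wnt9a* from 0% to 100%.

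The genes most like the called ligands were found by Pearson r of log2 CPM over the 9 libraries, among all genes tested. The values describe 9 libraries that share their scaling and the 3 conditions. For *Wnt5a* these were *Hp1bp3* (r = 0.988), *Creb3l2* (0.983) and *Mcam* (0.982). On the log2 scale *Hp1bp3* was at 0.55 relative to IgG RIP and 0.62 relative to input, *Creb3l2* at 0.82 and 0.83, and *Mcam* at 1.56 and 1.58, so only *Mcam* of the 3 passed 2-fold. For *Wnt9a* they were *Slc22a5* (0.989), *Lin52* (0.989) and *Plscr3* (0.988), all of them with log2 fold changes of 1.12 or more over both controls. For *Wnt2b* they were *Xkr6* (0.993), *Fbxo32* (0.992) and *Tnrc6b* (0.992), which had log2 values of 0.64 to 0.90 in IgG RIP over input and of 1.38 to 1.72 in CELF2-KI RIP over input.

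The rest of the pathway was read from 6 lists holding 72 genes, 65 of them tested. Of these 9 were higher than both controls and 3 were lower than both, where 7.58% and 9.52% of all genes tested were. Of 10 other Wnt ligands 7 were tested and none was called higher than either control by edgeR, with 0 higher over IgG RIP and 0 higher over input at an unadjusted p below 0.05 as well. *Wnt6* had the highest input level of that list, 8.15 ± 2.33 CPM (SD, n = 3), and was lower in CELF2-KI RIP than in input (log2 fold change -1.14, FDR 0.0092). IgG RIP was also below input for *Wnt6*, at -1.04 (FDR 0.023), and CELF2-KI RIP over IgG RIP was at -0.10 (FDR 0.81). *Wnt3a*, *Wnt8a* and *Wnt10a* were too low to test.

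Of the 6 lists the receptors, the largest list, held the most genes higher than both controls, where 7.58% of all genes tested were. All 18 receptors and coreceptors were tested, and 5 were higher than both controls and none lower. The medians of the list were 0.73 over IgG RIP and 0.80 over input, against -0.06 and 0.19 over all genes. The 5 were Frizzled genes, *Fzd1*, *Fzd3*, *Fzd5*, *Fzd6* and *Fzd7*. *Fzd3*, which guides axon tracts, had the highest level of the list in input and stood at 1055 ± 311 CPM in CELF2-KI RIP, 268 ± 10.3 in IgG RIP and 310 ± 31.6 in input (log2 fold changes 1.97 and 1.77).

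Among 10 genes of Wnt secretion and inactivation *Tmed10*, a cargo receptor of the early secretory pathway, was higher than both controls (1.77 and 1.17), and *Gpc3*, a glypican that binds Wnt proteins, was lower than both (-1.17 and -1.38). *Gpc1*, with the highest input level of that list, was at 379, 343 and 367 CPM on average and was not called. *Porcn*, which attaches the lipid, and *Wls*, which carries Wnt proteins to the surface, are named for their roles, after their values were seen. The log2 fold changes over IgG RIP and input were 0.88 and 0.86 for *Porcn* and 0.99 and 0.30 for *Wls*, and neither was called.

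Of 13 secreted antagonists tested *Sfrp1*, which binds Wnt proteins outside the cell, was higher than both controls (1.39 and 1.01), at 202 ± 19.0, 77.3 ± 23.0 and 100 ± 2.32 CPM. *Draxin*, the highest of the list in input, was not called. Among 8 tested genes of the R-spondin group *Znrf3*, a ligase that removes Frizzled receptors from the membrane, was higher (1.61 and 1.47) and *Rspo3*, whose protein blocks that ligase, was lower than both (-1.24 and -1.82). Of 10 common transcriptional targets *Ccnd1*, the cyclin of early cell cycle entry, was higher than both (1.87 and 1.06) and *Sp5* lower (-1.79 and -1.79). The targets had a median of -0.33 over IgG RIP and -0.21 over input, below the -0.06 and 0.19 of all genes.

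**Figure D4:**
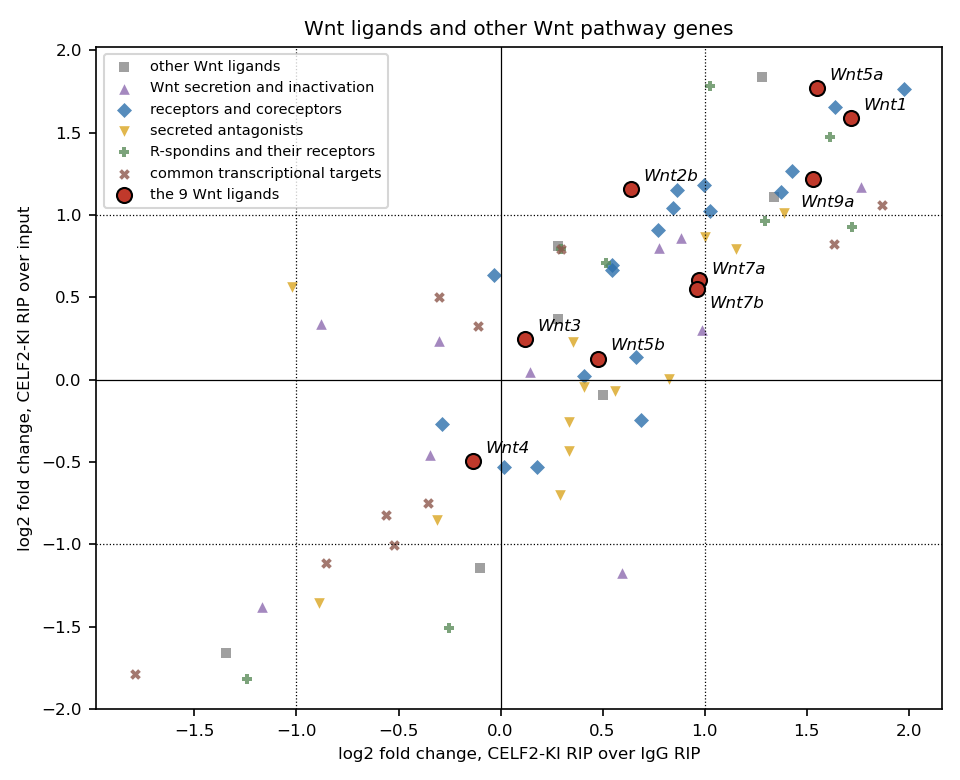
Log2 fold change over IgG RIP (x axis) against that over input (y axis) for the 9 Wnt ligands (large red points) and the tested genes of 6 other lists (small symbols). Dotted lines mark 2-fold, and both axes use the same CELF2-KI RIP libraries. *Wnt5a*, *Wnt1* and *Wnt9a* lie past 2-fold on both axes, *Wnt7a* and *Wnt7b* just short of it on the x axis, and *Wnt4* below 0 on both.

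How firmly each ligand was placed was read from 21 further fits, 9 with 1 library left out and 12 with another setting. *Wnt5a* was called over both controls in 5 of the 9 and 8 of the 12, and *Wnt9a* in 7 and 6. The log2 fold change of *Wnt5a* ranged from 1.16 to 1.93 over IgG RIP and from 1.28 to 2.05 over input. That of *Wnt9a* ranged from 1.15 to 1.76 and from 0.75 to 1.28. *Wnt2b* was called over input in all 9 fits with 1 library left out and in 7 of the other 12, and over IgG RIP in none.

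**Figure D5:**
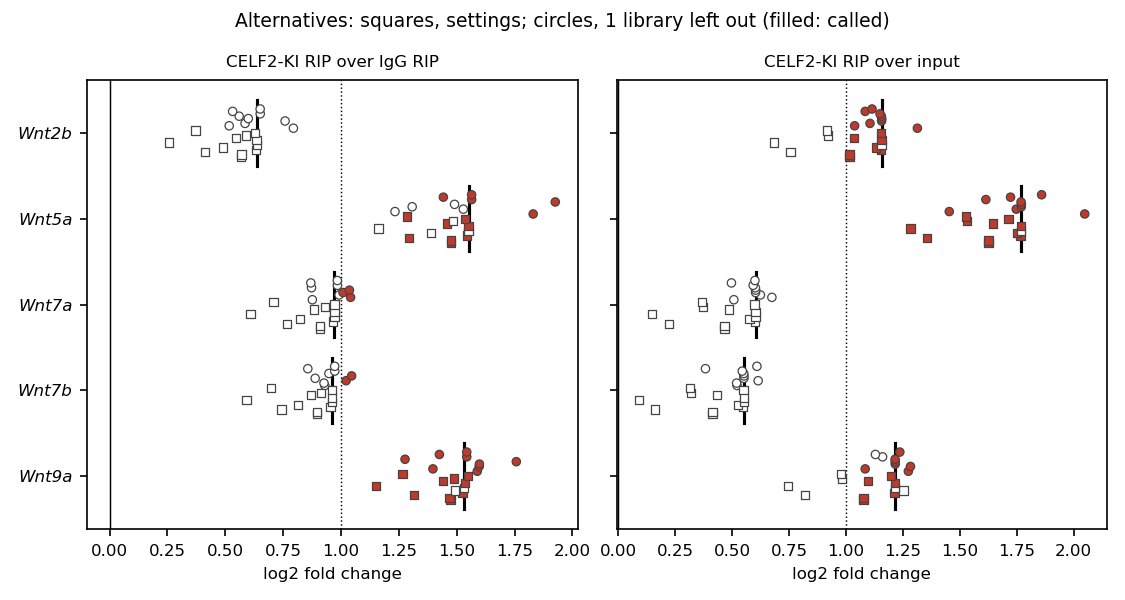
Log2 fold change (x axis) of 5 Wnt ligands over IgG RIP and over input under each alternative setting (squares) and with each library left out in turn (circles). Filled symbols were called, black bars give the reported value and the dotted line marks 2-fold. *Wnt5a* stays above 2-fold over both controls throughout, between 1.16 and 2.05, and *Wnt7a* and *Wnt7b* over IgG RIP gather just under the line.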

How the data were processed

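RNA was measured by RIP-seq in 9 libraries. Per the labels and methods, the authors depleted rRNA, made directional libraries, checked reads with FastQC 0.11.9, trimmed with fastp 0.23.4, removed rRNA reads with Ribodetector 0.3.1 and quantified with kallisto 0.51.1. The authors deposited estimated counts per transcript, not normalized for depth or length. All columns were used (0 left out).

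Of 107384 rows, 86714 were matched to RefSeq genes of GRCm38.p6 by accession, ignoring the version. Rows without a gene, 9.27% to 43.5% of the counts, were left out. The estimated counts of a gene were added up and rounded. Genes that code for protein and reached 0.5 CPM in 3 or more libraries were fitted with edgeR 4.0.16 in R 4.3.3 (quasi-likelihood test, TMM, 1 mean per condition). Alternatives used edgeR or DESeq2 1.42.0. No limma fit was run (limma 3.58.1 was loaded with edgeR). Python 3.11.15, pandas 2.3.3, scipy 1.17.1 and matplotlib 3.10.9 served the tables, permutation tests and plots. Row shares were tested with edgeR's splicing test. Steps were tested on simulated data.

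The labels speak of biological replicates, and p-values measure the spread between these libraries. Replicates differed by more than sampling noise (chi-square per gene 11.8 to 43.0). Deviations of same-numbered libraries from their condition means were correlated across 11532 genes. Between CELF2-KI RIP and input the values were 0.185, 0.122 and 0.212. For the 2 RIPs they were -0.070, 0.039 and -0.0092, and for IgG RIP with input 0.086, 0.064 and 0.0063. Libraries of unlike number were not compared, so these weak values do not settle which libraries were paired. Reads carry no molecular identifiers, and intervals cover only the spread among libraries.

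The ligands, gene lists and markers were chosen with earlier results of these data known. Genes named are the 9 ligands, *Celf2*, each pathway gene called higher or lower than both controls, the gene of each list with the highest input level, and the 3 genes most correlated with each called ligand (log2 CPM, prior count 2). Others are named as chosen after their values were seen.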

Additional observations from a re-analysis of the deposited data

How the results depend on the processing

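Over the 9 ligands in 3 comparisons, 517 of the alternative values kept direction and side of the threshold, 24 lost the call, 7 gained it and 19 changed sign, none of them a called value. The replicate block, which pairs libraries by number, left 2 ligands higher than IgG RIP, 3 than input and 2 than both, and 9 other pathway genes higher than both. It changed no call of a ligand. Pairing CELF2-KI RIP with input by number, added after seeing the data, gave differences of 1.58 for the *Wnt5a* to *Wnt5b* ratio and 0.04 for *Wnt7a* to *Wnt7b*. DESeq2 kept the ligand counts, and other pathway genes higher than both were 5 with its size factors and 5 with its Wald test. Ligands higher than IgG RIP, than input and than both numbered 1, 1 and 0 with library totals alone (2 pathway genes), a scaling that moved the median of all genes by -0.37 and -0.46. With upper quartile factors 1 ligand was higher than input and 1 than both (4 pathway genes), and with TMM over noncoding genes too 1 and 1 (3 pathway genes). A test against a 2-fold change (glmTreat) gave 0, 0 and 0 (1 pathway gene), fits of only the 2 conditions compared gave 1 over IgG RIP and 0 over both (4 pathway genes), and curated transcripts alone gave 0 and 0. With 1 library left out the ligands higher than both ranged from 1 to 2 and the pathway genes from 5 to 11, with 5 without CELF2-KI RIP library 2 and 5 without input library 2. The cause was not tested.

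With 1 library left out the *Wnt7a* to *Wnt7b* difference of 0.02 ranged from -0.037 to 0.13, below 0 without CELF2-KI RIP library 1 or 3, IgG RIP library 3 or input library 3. *Wnt5b* over input fell to -0.0072 with DESeq2's size factors and -0.0072 with its Wald test, -0.32 with totals, -0.11 with upper quartile, -0.24 with TMM over noncoding genes too and -0.10 with 2 conditions, and ranged from -0.13 (without CELF2-KI RIP library 1) to 0.30 with 1 library left out. *Wnt3* over IgG RIP fell to -0.24 with totals, -0.14 with upper quartile, -0.094 with TMM over noncoding genes too and -0.041 with curated transcripts, and ranged from -0.10 (without CELF2-KI RIP library 3) to 0.23. Over input it fell to -0.21 with totals and -0.14 with TMM over noncoding genes too, which also gave -0.047 for *Wnt3* in IgG RIP over input. *Wnt4* over IgG RIP ranged from -0.26 to 0.061 (without IgG RIP library 2). In IgG RIP over input *Wnt1* ranged from -1.42 to 0.48 (without IgG RIP library 3) and *Wnt5a* from -0.16 (without IgG RIP library 3) to 0.46. *Wnt1* had at most 44 counts in a library.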

Other observations

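Several pathway genes passed the threshold over 1 control and missed it over the other. They are named here after their values were seen, and whether the 2 comparisons differ was not tested. *Lrp6*, the coreceptor of the canonical route, was at 347 CPM on average in CELF2-KI RIP, 191 in IgG RIP and 156 in input. Its log2 fold change of 1.15 over input was called and that of 0.86 over IgG RIP was not. *Fzd8* (1.18) and *Reck* (1.05), a membrane protein of the receptor and coreceptor list, were likewise called over input only. Over IgG RIP *Fzd8* was at 0.996 (FDR 4.5e-05), just under 2-fold, and *Reck* at 0.85 (FDR 0.025). The reverse held for *Rspo2* (1.72 over IgG RIP, 0.93 over input), *Lgr4*, an R-spondin receptor (1.30 and 0.96), and *Kremen1* (1.0 and 0.86). *Myc* and *Nkd1*, 2 of the common transcriptional targets, were lower than input (-1.11 and -1.01) and not called over IgG RIP. There *Myc* was at -0.86 (FDR 0.00060), short of 2-fold only, and *Nkd1* at -0.52 (FDR 0.024).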
